A study of Homo sapiens with 36 samples.

Results

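The untreated DIS3-AID clone was compared with its control line in polyA RNA of the cytoplasm, using 6 of the 36 libraries of the series, 3 for each line. The libraries were taken by their labels: cytoplasmic fraction, polyA-selected, not induced. Both lines derive from HCT116, a human colon carcinoma line, and both express TIR1, a receptor from plants that, once bound to auxin, has proteins with the degron tag broken down. In the DIS3-AID line, made with CRISPR, DIS3 carries the auxin-inducible degron (AID), and it is treated here as 1 clone. The control line carries TIR1 and no tag on DIS3. No auxin was added to any of these 6 cultures. The labels call the 3 libraries of a line technical replicates, so a p-value here covers the spread among libraries of a line and no more, and a difference between the lines cannot be told apart from a difference between any 2 cell populations grown from HCT116. The same contrast after 1 h of 500 uM auxin, in 6 other polyA libraries, and the same untreated contrast in total RNA of cytoplasm and chromatin are given beside it where they bear on a result.

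DIS3 is the main catalytic ribonuclease of the nuclear RNA exosome, the complex that degrades RNA from the 3′ end. It is known for removing short-lived nuclear transcripts such as promoter upstream RNAs and enhancer RNAs and for trimming precursors of stable RNAs. A degron line is meant to keep the tagged protein until auxin is added, and the untreated comparison shows where the tagged line and its control already differ in RNA. The polyA libraries measure RNA with a tail, mostly messenger RNA that has left the nucleus. No protein was measured.

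The 6 libraries held 25859633 to 29384381 counts in DIS3-AID and 29115600 to 33068609 counts in control cells. Levels are CPM, counts scaled to library size, after scaling by TMM (edgeR's trimmed mean of M values), and differences are log2 ratios of DIS3-AID over control from edgeR's quasi-likelihood test, with p-values adjusted by Benjamini-Hochberg over all features and a threshold of 0.05. The deposited polyA tables hold a protein-coding gene nearly only where it also has a retained-intron or processed-transcript model: 99.08% of such genes are in them, against 0.908% of the others, and 6453 of 19762 coding genes are missing. Counts of coding genes therefore appear to cover the exons of those models only, so differences are taken between libraries. Where levels of several genes are summed or ranked, the counts may cover only a part of each gene. Of 11 colon epithelial markers named, 9 were counted in polyA RNA and present in both lines. They summed to 8180 to 8430 CPM in DIS3-AID and 6660 to 7380 CPM in control libraries. KRT8 (mean 4640 and 3910 CPM), KRT18 (2010 and 1480) and KRT19 (1260 and 1280) made up most of that sum. The other markers, CDH17 and VIL1, lay near 0 in cytoplasm total RNA. Their means were 0.0576 and 0.0459 CPM in DIS3-AID and 0.0285 and 0.0271 CPM in control libraries. Fibroblast markers summed to 14.4 to 16.9 CPM in DIS3-AID and 15.4 to 15.9 CPM in control libraries, nearly all of it COL1A1, with COL1A2 and DCN at 0, and blood markers summed to at most 0.0785 CPM in DIS3-AID and 0.174 CPM in control libraries.

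DIS3 itself (ENSG00000083520.14, hg38 chromosome 13, 72752169 to 72782096, minus strand) had less polyA RNA in the clone that carries the tag. Its polyA level was 4.66, 4.37 and 4.04 CPM in DIS3-AID libraries, against 8.32, 6.46 and 5.91 CPM in control libraries. The highest DIS3-AID library lay below the lowest control library. The log2 difference was -0.66 ± 0.13 (SE; edgeR adjusted p = 0.000839), and in the auxin-treated pair it was -0.42 (edgeR adjusted p = 0.0124), a call lost without auxin-treated DIS3-AID library 3 (adjusted p = 0.0514) or auxin-treated control library 2 (0.0627). These counts rest on 716 bases of model exons, all inside coding exons. In cytoplasm total RNA DIS3 had 51.1, 52.1 and 47.1 CPM in DIS3-AID and 92.4, 91.6 and 87.6 CPM in control libraries (log2 -0.85, edgeR adjusted p = 2.38e-09). On chromatin it had 37.5, 30.4 and 33.3 CPM in DIS3-AID and 55.3, 53.5 and 55.5 CPM in control libraries (log2 -0.70). The groups did not overlap in any of these fractions.

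The promoter of DIS3 is shown because the genes on either side of it did not follow DIS3. PIBF1 starts 233 bases away on the other strand, with RefSeq start sites at 72781900 for DIS3 and 72782133 for PIBF1 on chromosome 13, so that the pair is transcribed divergently from one short interval. The window runs from 250 bases before to 50 bases after the DIS3 start (RefSeq, GRCh38.p14, chr13:72781851-72782150, minus strand, 5′ to 3′), and capitals mark the 2 matches to CCAAT, searched on both strands. That motif is present in 35.7% of 27305 RefSeq promoters of this length.
DIS3: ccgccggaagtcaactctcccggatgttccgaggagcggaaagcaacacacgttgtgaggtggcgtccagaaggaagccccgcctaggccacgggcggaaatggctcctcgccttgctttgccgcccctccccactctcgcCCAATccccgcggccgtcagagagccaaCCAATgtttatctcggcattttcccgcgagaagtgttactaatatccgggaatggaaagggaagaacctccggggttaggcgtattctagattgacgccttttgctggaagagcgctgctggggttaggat
PIBF1 had 24.9 ± 2.94 CPM in DIS3-AID and 26.2 ± 0.785 CPM in control libraries (SD, n = 3 each; log2 -0.07). BORA, an activator of Aurora kinase whose gene overlaps the end of DIS3, had a log2 difference of 0.08. The transcription factor genes KLF5 (0.20) and KLF12 (0.28), the other tested genes within 1 Mb, did not pass either.

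Among other genes of RNA decay SKIC3 and TENT4A were lower, while the core subunits of the exosome did not pass. DIS3L, the cytoplasmic relative of DIS3, was higher, at 53.3, 51.9 and 49.7 CPM in DIS3-AID and 46.7, 45.9 and 43.2 CPM in control libraries (log2 0.19 ± 0.06 SE, edgeR adjusted p = 0.0298), groups that did not overlap, though the call was lost in 5 of the 6 fits that left out 1 library (adjusted p up to 0.179). DIS3L2, which degrades uridylated RNA without the exosome, stood at 0.04 and EXOSC10, the second nuclear exosome nuclease, at -0.04, and neither passed. Of the 10 core subunits tested (12 named), 0 passed, with log2 differences between -0.14 and 0.08. Among 23 exosome adaptors and nuclear decay factors 2 were higher and 2 lower, against 6.22% higher and 5.65% lower among all features. SKIC3, a scaffold of the SKI complex that feeds RNA to the cytoplasmic exosome, had 20.4, 20.6 and 18.6 CPM in DIS3-AID and 41.9, 36.4 and 32.8 CPM in control libraries (log2 -0.90 ± 0.08 SE, edgeR adjusted p = 1.61e-09). The non-canonical poly(A) polymerase TENT4A was lower too (log2 -0.54). MTREX, the helicase of nuclear exosome adaptors, was higher by 0.18 and the cytoplasmic 5′ to 3′ nuclease XRN1 by 0.38, calls that were each lost in 4 of those 6 fits (adjusted p up to 0.13 for MTREX and 0.277 for XRN1). SKIC3 was also lower in cytoplasm total RNA (-0.96) and stood at -0.16 on chromatin (edgeR adjusted p = 0.124). DIS3L2 had 57.6, 60 and 60 CPM in DIS3-AID and 46.5, 47 and 50.2 CPM in control libraries of cytoplasm total RNA, groups that did not overlap. DIS3L had 52.5, 54.4 and 52.5 CPM in DIS3-AID and 50.5, 52.2 and 51 CPM in control libraries there, groups that were separate by little. Those of EXOSC10 overlapped.

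Over all features tested, 1976 of 16651 passed (11.9%). Of these 1035 were higher in DIS3-AID cells (6.22% of those tested) and 941 lower (5.65%), and the median difference of all features was 0.01. Most differences were small: 168 features (1.01%) were higher and 82 (0.492%) lower by at least 2-fold. At an unadjusted p under 0.05 the count was 4180. Without control library 2 the calls were 577 higher and 617 lower, and the higher ones 642 without DIS3-AID library 1 and 658 without DIS3-AID library 3. On the first principal component of the 12 polyA libraries, which held 65.6% of the variance, untreated DIS3-AID libraries lay at -13.98 to -12.69 and all 6 control libraries at -35 to -30.71, while the auxin-treated DIS3-AID libraries lay at 75.51 to 82.07. The medians of tested genes by nuclear chromosome lay between -0.03 (chromosome 6) and 0.04 (chromosome 21).

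**Figure D1:**
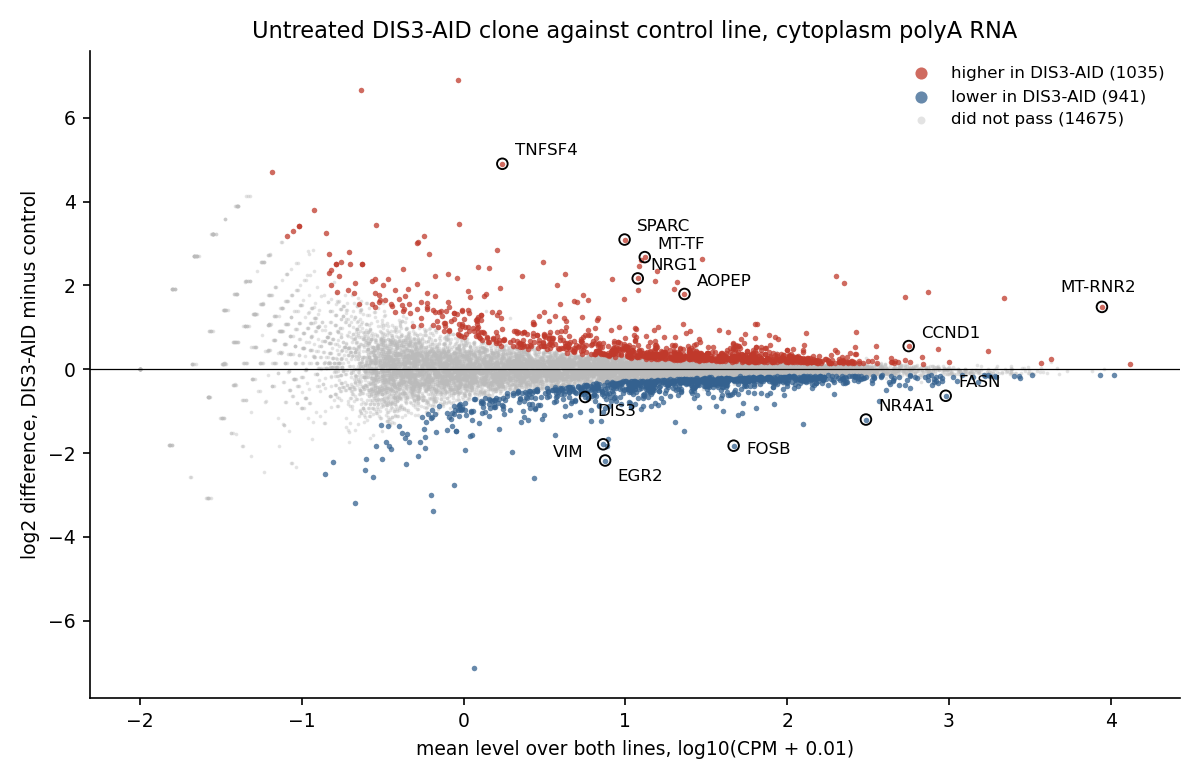
Each point is 1 of 16651 features in the polyA libraries, with its mean level over both lines on a log10 scale (horizontal) and its log2 difference, DIS3-AID minus control (vertical). Red points passed as higher (1035), blue points as lower (941). TNFSF4 and SPARC lie far above the others of similar level, EGR2, FOSB and VIM below, and MT-RNR2 is the most abundant of the labelled features.

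The plot of all features shows how few lie beyond 2-fold. The genes with the largest rises included genes of the cell surface and the extracellular matrix. TNFSF4, the ligand of the T cell receptor OX40, had 3.66, 3.2 and 3.18 CPM in DIS3-AID and 0.0316, 0.0347 and 0.249 CPM in control libraries (log2 4.90 ± 0.33 SE, edgeR adjusted p = 5.04e-12). SPARC, a secreted collagen-binding glycoprotein, had 17.1, 18.1 and 18 CPM in DIS3-AID and 2.12, 2.02 and 2.08 CPM in control libraries (log2 3.09 ± 0.11 SE, edgeR adjusted p = 3.7e-18). For both genes each DIS3-AID library lay several-fold above each control library. SLCO4A1-AS1, an antisense lncRNA of a transporter gene, had 2.56, 3.13 and 2.75 CPM in DIS3-AID and 0.158, 0.347 and 0.653 CPM in control libraries (log2 2.84). WASF3, which drives actin branching at the cell edge, had 2.17, 2.07 and 1.92 CPM in DIS3-AID and 0.221, 0.486 and 0.435 CPM in control libraries (log2 2.43). TNNC1, the troponin C of heart and slow muscle, had 3.38, 4.13 and 3.81 CPM in DIS3-AID and 0.949, 0.556 and 0.871 CPM in control libraries (log2 2.24). Separate groups without auxin and the same direction after it were conditions for naming these genes. Their groups did not overlap after auxin either. Without control library 3 the log2 difference was 6.47 for TNFSF4 and 3.46 for SLCO4A1-AS1.

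All 5 genes were also higher in the cytoplasm total RNA. TNFSF4 stood there at 28.8, 31.5 and 29 CPM in DIS3-AID and 1.45, 1.56 and 1.42 CPM in control libraries (log2 4.33), and on chromatin at 13.7, 13.9 and 14.1 CPM in DIS3-AID and 1.13, 1.13 and 1.14 CPM in control libraries (log2 3.61). SPARC had log2 differences of 3.21 in cytoplasm total RNA and 2.67 on chromatin, WASF3 1.81 and 1.95, SLCO4A1-AS1 2.68 and 1.74. TNNC1 stood at 2.08 in cytoplasm total RNA and at 0.69 on chromatin, where it did not pass (edgeR adjusted p = 0.206).

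**Figure D2:**
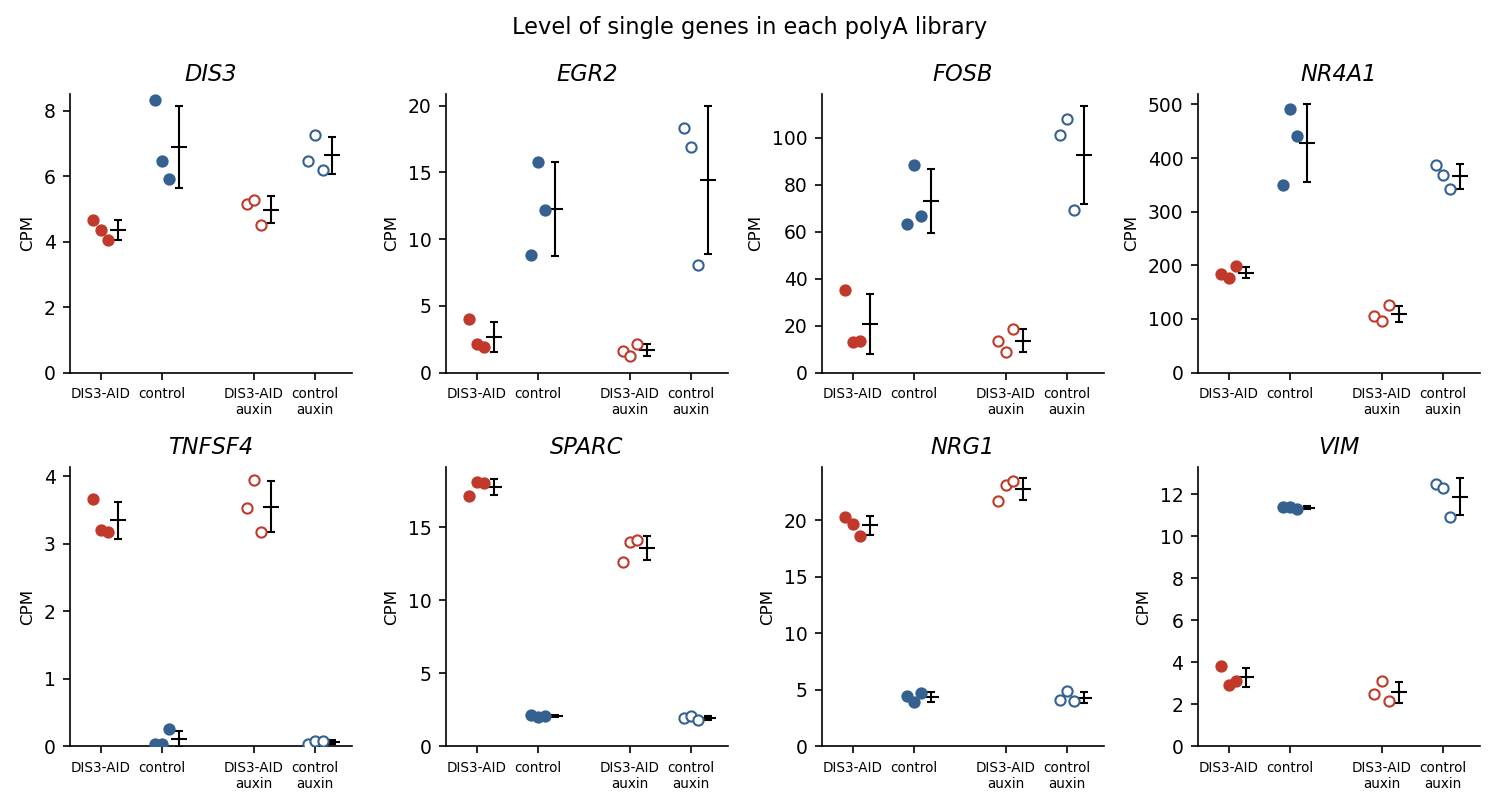
Level in CPM of 8 genes in each polyA library (dots), with the mean and SD of 3 libraries beside them. Filled symbols are untreated and open symbols auxin-treated libraries, red DIS3-AID and blue control. The DIS3-AID dots lie apart from the control dots in all 8 panels, below them for DIS3, EGR2, FOSB, NR4A1 and VIM and above them for TNFSF4, SPARC and NRG1. Separate groups without auxin were a condition for naming TNFSF4, SPARC, NRG1, EGR2, FOSB and VIM.

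Other genes with large rises were picked after their values were seen, by the same criteria and without mitochondrial genes. NRG1, a growth factor that activates the receptors ERBB3 and ERBB4, had 20.3, 19.7 and 18.6 CPM in DIS3-AID and 4.46, 3.86 and 4.7 CPM in control libraries (log2 2.17 ± 0.10 SE, edgeR adjusted p = 1.11e-15). SULT1A1, a sulfotransferase of phenolic compounds, had 32.4, 31.8 and 30.7 CPM in DIS3-AID and 8.64, 7.61 and 8.96 CPM in control libraries (log2 1.91). AOPEP, an aminopeptidase, had 37.8, 36.4 and 33.9 CPM in DIS3-AID and 10.5, 10.3 and 10.3 CPM in control libraries (log2 1.80). Separate groups were among the criteria, so that each DIS3-AID library of these genes lay above every control library. Further rises were those of the membrane protein PROM2 (1.94), the cytoskeletal protein DPYSL3 (1.90), the myosin light chain MYL2 (1.62), the skin protease KLK5 (1.61) and the transcription factor NFIB (1.55). Their differences in cytoplasm total RNA were 2.15 for NRG1, 1.66 for SULT1A1, 1.22 for AOPEP, 1.76 for PROM2, 1.71 for DPYSL3, 1.67 for MYL2, 1.58 for KLK5 and 1.63 for NFIB, all of which passed. On chromatin they were 1.89 for NRG1, 0.56 for SULT1A1, 0.54 for AOPEP and 1.70 for PROM2. DPYSL3 (1.84), MYL2 (1.335), KLK5 (1.04) and NFIB (1.59) were higher there as well, and all of these passed. Of the model bases of NRG1, SULT1A1 and AOPEP only 24.6, 21.6 and 25.2% lie in coding exons. SULT1A1 belongs to a family of close paralogues and AOPEP shares reads with MIR24-1.

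The genes with the largest falls included 4 stimulus-induced transcription factors. EGR2, a zinc finger factor of the immediate-early class, had 3.98, 2.17 and 1.92 CPM in DIS3-AID and 8.79, 15.8 and 12.2 CPM in control libraries (log2 -2.18 ± 0.42 SE, edgeR adjusted p = 0.0113). FOSB, a subunit of the AP-1 factor, had 35.2, 12.9 and 13.5 CPM in DIS3-AID and 63.4, 88.5 and 66.8 CPM in control libraries (log2 -1.82 ± 0.41 SE, edgeR adjusted p = 0.0242). EGR3 had 4.19, 3.61 and 3.34 CPM in DIS3-AID and 10.8, 14.6 and 9.89 CPM in control libraries (log2 -1.66), and ATF3, a stress-induced repressor, 85.6, 65.7 and 64.5 CPM in DIS3-AID and 163, 198 and 171 CPM in control libraries (log2 -1.30). Separate groups were a condition for naming the 4. DIS3-AID library 1 was the highest of its line and control library 1 the lowest of its line for EGR2, FOSB and ATF3. The FOSB call was lost in 4 of the 6 fits that left out 1 library (without DIS3-AID library 2 or 3 or control library 2 or 3; log2 over all 6 fits -2.48 to -1.58, edgeR adjusted p up to 0.0882). FOSB showed the same order in cytoplasm total RNA, with 73.2, 30.8 and 37 CPM in DIS3-AID and 153, 237 and 194 CPM in control libraries (log2 -2.05). The labels do not say whether polyA and total libraries of one number come from the same extract, so the total RNA may not be a separate culture.

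The promoters of FOSB and EGR2 are shown because these are the first of the stimulus-induced genes above and are among the best known targets of signalling to chromatin. Letters searched were TGACG (the core of the CREB and ATF site), TGACGTCA, TATAAA and the CArG box of serum response factor, each on both strands, TGACG being contained in TGACGTCA. In the FOSB window (RefSeq, GRCh38.p14, chr19:45467746-45468045, plus strand) capitals mark 1 TGACG and 1 TATAAA. In the EGR2 window (chr10:62819118-62819417, minus strand) there is no match to these 4, which says only that the letters are not in this window.
FOSB: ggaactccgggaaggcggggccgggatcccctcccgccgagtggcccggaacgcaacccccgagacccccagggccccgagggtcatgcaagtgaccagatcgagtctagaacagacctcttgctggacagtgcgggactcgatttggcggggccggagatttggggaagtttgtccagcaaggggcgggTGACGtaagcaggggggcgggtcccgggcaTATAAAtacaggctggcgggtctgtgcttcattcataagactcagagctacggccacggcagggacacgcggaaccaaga
EGR2: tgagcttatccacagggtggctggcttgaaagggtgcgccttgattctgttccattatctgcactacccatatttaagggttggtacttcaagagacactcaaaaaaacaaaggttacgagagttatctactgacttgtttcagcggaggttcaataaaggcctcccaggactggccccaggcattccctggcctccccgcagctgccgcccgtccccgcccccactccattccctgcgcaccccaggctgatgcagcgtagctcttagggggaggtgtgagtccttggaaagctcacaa
Over all RefSeq promoters of this length TGACG was present in 25%, TATAAA in 12%, TGACGTCA in 1.98% and the CArG box in 1.29%. Of the 19 promoters matched for the immediate-early list, 7 held TGACG, 4 TATAAA, 1 TGACGTCA and 0 the CArG box. Of the 8 among them whose genes passed as lower, 1 held TGACG, 2 TATAAA, 0 TGACGTCA and 0 the CArG box.

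The immediate-early and ERK feedback genes were described as a group. ERK, the last kinase of a growth factor cascade, switches these genes on within minutes, and several of their products switch it off again. Of 54 genes named, 27 were in the table and tested, of which 13 were lower and 1 higher, against 5.65% lower and 6.22% higher among all features, with a median of -0.28. The lower members stayed within 1.5 times that count whichever library was left out, and the higher ones were 3 without control library 1. NR4A1, a nuclear receptor, had 184, 177 and 198 CPM in DIS3-AID and 350, 492 and 442 CPM in control libraries (log2 -1.20 ± 0.13 SE, edgeR adjusted p = 0.000418). CCN1, a secreted matrix protein, had 40.1, 47.4 and 45.5 CPM in DIS3-AID and 90.5, 83.4 and 78.2 CPM in control libraries (log2 -0.92). Neither gene's groups overlapped. DUSP5 and DUSP6, phosphatases that inactivate ERK, were lower as well, and were named after their values were seen. DUSP5 had 256, 293 and 270 CPM in DIS3-AID and 441, 510 and 442 CPM in control libraries (log2 -0.77), and DUSP6 62.4, 69.4 and 60.9 CPM in DIS3-AID and 75.8, 79 and 79.2 CPM in control libraries (log2 -0.28). The exception was ETV4, an ETS factor, with 68.6, 64.6 and 69.4 CPM in DIS3-AID and 56.7, 52.3 and 56.8 CPM in control libraries (log2 0.29, edgeR adjusted p = 0.00119). Its relative ETV1, named after its values were seen, was lower (7.71, 9.26 and 8.44 CPM in DIS3-AID, 18.7, 16.3 and 14.3 CPM in control libraries, log2 -0.95). KLF6 (-0.14), TRIB1 (-0.13) and KLF4 (-0.19) did not pass. After auxin 20 of the 27 were lower and 0 higher, with a median of -0.59, against 15.9% lower and 22% higher among all features then.

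The remaining large falls were in genes of other roles. GGT1, the cell surface enzyme that cleaves glutathione, had 3.87, 3 and 3.34 CPM in DIS3-AID and 13.3, 11.2 and 11.7 CPM in control libraries (log2 -1.82 ± 0.12 SE, edgeR adjusted p = 2.33e-12), and shares reads with SNRPD3. VIM, the intermediate filament protein of mesenchymal cells, had 3.8, 2.93 and 3.1 CPM in DIS3-AID and 11.4, 11.4 and 11.3 CPM in control libraries (log2 -1.79 ± 0.12 SE, edgeR adjusted p = 1.13e-11). In both genes every DIS3-AID library lay far below every control library. KRT7, a keratin of simple epithelia, had 13.6, 11.5 and 11.5 CPM in DIS3-AID and 32.8, 31.9 and 36.2 CPM in control libraries (log2 -1.46). TCEA3, a transcription elongation factor (-1.56), SLC6A20, a transporter of imino acids (-1.43), PRKACB, a catalytic subunit of protein kinase A (-1.26), and CYB5R2, a cytochrome b5 reductase (-1.24), completed the set of named coding genes. Each was also lower in cytoplasm total RNA, at -1.44 for GGT1, -1.97 for VIM, -1.43 for KRT7, -1.22 for TCEA3, -1.22 for SLC6A20, -1.34 for PRKACB and -1.11 for CYB5R2, and on chromatin, between -0.60 for GGT1 and -1.86 for VIM.

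The largest fall was in the lncRNA ENSG00000235609 on chromosome 21, which had 1 count over the 3 DIS3-AID libraries and 214 over the 3 control libraries. Its level was 0.0355, 0 and 0 CPM in DIS3-AID and 2.82, 2.02 and 2.08 CPM in control libraries, a ratio of 0.00523 (95% exact interval 0.000132 to 0.0295, counting error only). It shares reads with LINC02246 and NRIP1, and after auxin it was at 0 in all 3 DIS3-AID libraries, against 3, 3.03 and 2.39 CPM in control libraries. VIM-AS1, antisense at the VIM promoter, was lower with VIM, at 0.213, 0.241 and 0.196 CPM in DIS3-AID and 1.64, 1.46 and 1.4 CPM in control libraries (log2 -2.76). KRT14, a keratin of basal epithelium, was found at 36 counts over the DIS3-AID libraries and 0 over the control libraries, at least 13.4-fold higher against a floor of 3 counts over the group. Of all tested features 39 were at 0 in all 3 DIS3-AID libraries and 82 at 0 in all 3 control libraries. The count filter was applied to untreated and auxin-treated polyA libraries together. Both counts include any features that reached it only through auxin-treated libraries, so their difference cannot be read as one between the untreated lines.

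Falls picked after their values were seen, by the same criteria, gave further examples. SNTB1, a syntrophin that anchors membrane proteins, had 3.7, 3.92 and 5.14 CPM in DIS3-AID and 10.7, 10.2 and 8.83 CPM in control libraries (log2 -1.23). WDTC1, a substrate receptor of a ubiquitin ligase, had 35.5, 31.9 and 34.8 CPM in DIS3-AID and 64.7, 73.1 and 73.6 CPM in control libraries (log2 -1.05). DBP, a transcription factor driven by the circadian clock, had 29.7, 26.1 and 25.2 CPM in DIS3-AID and 47.1, 57.6 and 56.1 CPM in control libraries (log2 -0.99). The groups were separate for all of them, as the criteria required. IQGAP2, a scaffold of the actin cytoskeleton, had a log2 difference of -1.14. TNFAIP2, named from the NF-kB list, had 33.2, 29.6 and 31.9 CPM in DIS3-AID and 64.3, 69.5 and 69 CPM in control libraries (log2 -1.10) and was the only 1 of 12 tested genes of that list to pass. On chromatin SNTB1 (-1.24), IQGAP2 (-1.09) and TNFAIP2 (-0.35) were lower. WDTC1 (-0.15) and DBP (-0.23) did not pass there (edgeR adjusted p = 0.171 and 0.169).

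Mitochondrially encoded RNA had the largest median difference of all lists and classes tested. Its share of counts was 1.18, 1.71 and 2.16% in DIS3-AID and 0.66, 0.507 and 0.56% in control libraries. The groups did not overlap, but the DIS3-AID libraries spread over a range wider than the whole control level, and the exact permutation test gave p = 0.1 (2-sided), the smallest possible with 3 against 3. Of 24 mitochondrial genes tested, all of them ribosomal or transfer RNAs, 22 passed as higher and 0 as lower, with a median of 2.08, against 6.22% higher among all features. With 1 library left out 15 to 23 passed, and with a minimum count of 50 the number was 13. MT-RNR2, the large ribosomal RNA, had 9060, 13100 and 17000 CPM in DIS3-AID and 5260, 4100 and 4600 CPM in control libraries (log2 1.49 ± 0.35 SE, edgeR adjusted p = 0.0273). MT-RNR1, the small ribosomal RNA, had 2360, 3530 and 4100 CPM in DIS3-AID and 1120, 909 and 1030 CPM in control libraries (log2 1.71). Among transfer RNAs, whose reads may come from uncut precursors of neighbouring genes, the 6 that met the naming rule were MT-TF (2.67), MT-TV (2.63), MT-TW (2.60), MT-TM (2.45), MT-TI (2.34) and MT-TT (2.26). MT-TQ (1.23) and MT-TN (1.41) did not pass, although MT-TN did without DIS3-AID library 1. The MT-RNR2 call was lost in 5 of the 6 fits that left out 1 library (all but that without DIS3-AID library 1; log2 over all 6 fits 1.23 to 1.68, edgeR adjusted p up to 0.108), the MT-RNR1 call without control library 2 (adjusted p = 0.052) and the MT-TT call without control library 2 or 3 (adjusted p up to 0.0634).

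**Figure D3:**
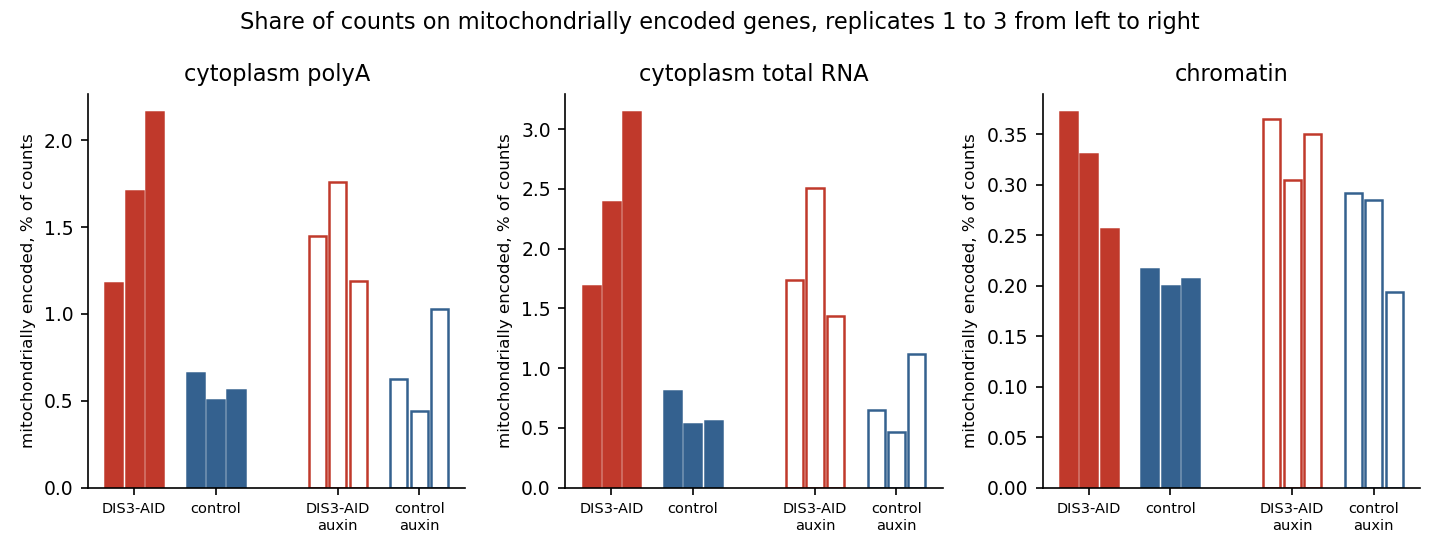
Mitochondrially encoded genes as a percentage of all counts in each library, by fraction, with 3 bars per group for replicates 1 to 3; filled bars are untreated, open bars auxin-treated, red DIS3-AID and blue control. In polyA RNA the untreated DIS3-AID bars run from 1.18 to 2.16% and the untreated control bars from 0.507 to 0.66%. The polyA bars cover ribosomal and transfer RNAs only, and the other bars include mitochondrial messenger RNAs as well.

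The shares by fraction cover unlike sets of genes, since those of cytoplasm total RNA and chromatin include 13 mitochondrial messenger RNAs not counted in polyA RNA. In cytoplasm total RNA the share had the same order of libraries, 1.69, 2.39 and 3.14% in DIS3-AID and 0.809, 0.535 and 0.556% in control libraries. There 12 of the 13 mitochondrial messenger RNAs were higher, with a median log2 difference of 1.89. The ribosomal RNAs MT-RNR1 and MT-RNR2 did not pass there (log2 2.37 and 2.30, edgeR adjusted p = 0.331 and 0.274). MT-RNR1 had 201, 351 and 2.88 CPM in DIS3-AID and 41.6, 12.9 and 53 CPM in control libraries, and MT-RNR2 249, 468 and 8.63 CPM in DIS3-AID and 57.9, 19.7 and 70 CPM in control libraries. For both genes DIS3-AID library 3 lay below every control library. On chromatin the share was 0.372, 0.331 and 0.256% in DIS3-AID and 0.217, 0.2 and 0.207% in control libraries. MT-RNR1 went the other way there, at 0.579, 0.634 and 1.65 CPM in DIS3-AID and 3.48, 5.94 and 9.22 CPM in control libraries (log2 -2.79, edgeR adjusted p = 0.0676, not passed). After auxin the polyA sums were 14152, 17398 and 11462 CPM in DIS3-AID and 6343, 4426 and 10387 CPM in control libraries, so that 1 control library came close to the lowest DIS3-AID library. Nuclear copies of mitochondrial sequence moved with them, MTND2P28 being higher by 2.22 and MTATP6P1 by 1.72 (call lost in 4 of 6 fits with 1 library left out, adjusted p up to 0.0977), with the order of libraries 1, 2 and 3 seen for MT-RNR2 in DIS3-AID cells. Reads of near-identical copies cannot be told apart. Nuclear genes of oxidative phosphorylation, whose products join those of the mitochondrial genome in the respiratory chain, had 0 higher and 2 lower of 59 tested (median -0.07), with 15 lower without control library 1, 9 without DIS3-AID library 2 and 1 without control library 2 or 3. How far recovery of mitochondria with the cytoplasmic fraction plays a part was not tested.

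Targets of p53, the tumour suppressor that HCT116 cells keep in its normal form, had 0 higher and 10 lower of 23 tested, against 6.22% higher and 5.65% lower among all features, with a median of -0.23. DDB2, a DNA damage sensor, had 58.8, 58.1 and 60.6 CPM in DIS3-AID and 84.3, 92.6 and 93 CPM in control libraries (log2 -0.60 ± 0.06 SE, edgeR adjusted p = 8.05e-09). CDKN1A, the cell cycle inhibitor p21, had 85.4, 87.3 and 95.9 CPM in DIS3-AID and 110, 112 and 113 CPM in control libraries (log2 -0.32). The stress regulator SESN1 (-0.46), PHLDA3 (-0.44), the death receptor FAS (-0.41) and CCNG1 (-0.31) were lower, each with separate groups (the PHLDA3 call was lost without control library 2 or 3, edgeR adjusted p up to 0.0618), and MDM2, the ubiquitin ligase of p53, stood at -0.14 and did not pass.

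Genes induced by type I interferon had 0 higher and 9 lower of 27 tested (median -0.22), against 6.22% higher and 5.65% lower among all features. IFI35 had 5.97, 5.85 and 6.36 CPM in DIS3-AID and 8.73, 11.5 and 10.5 CPM in control libraries (log2 -0.76). The signalling factors IRF9 (-0.47) and IRF1 (-0.42), the immunoproteasome subunit PSMB9 (-0.46), the ISG15 ligase HERC5 (-0.41) and the peptide transporter TAP1 (-0.34) were lower too. The IRF9 call was lost without DIS3-AID library 1 (edgeR adjusted p = 0.0632), and that of TAP1 in 3 of 6 fits with 1 library left out (up to 0.0758). OAS3, a sensor of double-stranded RNA, had 45, 38 and 40.6 CPM in DIS3-AID and 54.5, 42.9 and 40.2 CPM in control libraries, groups that overlap, and did not pass.

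**Figure D4:**
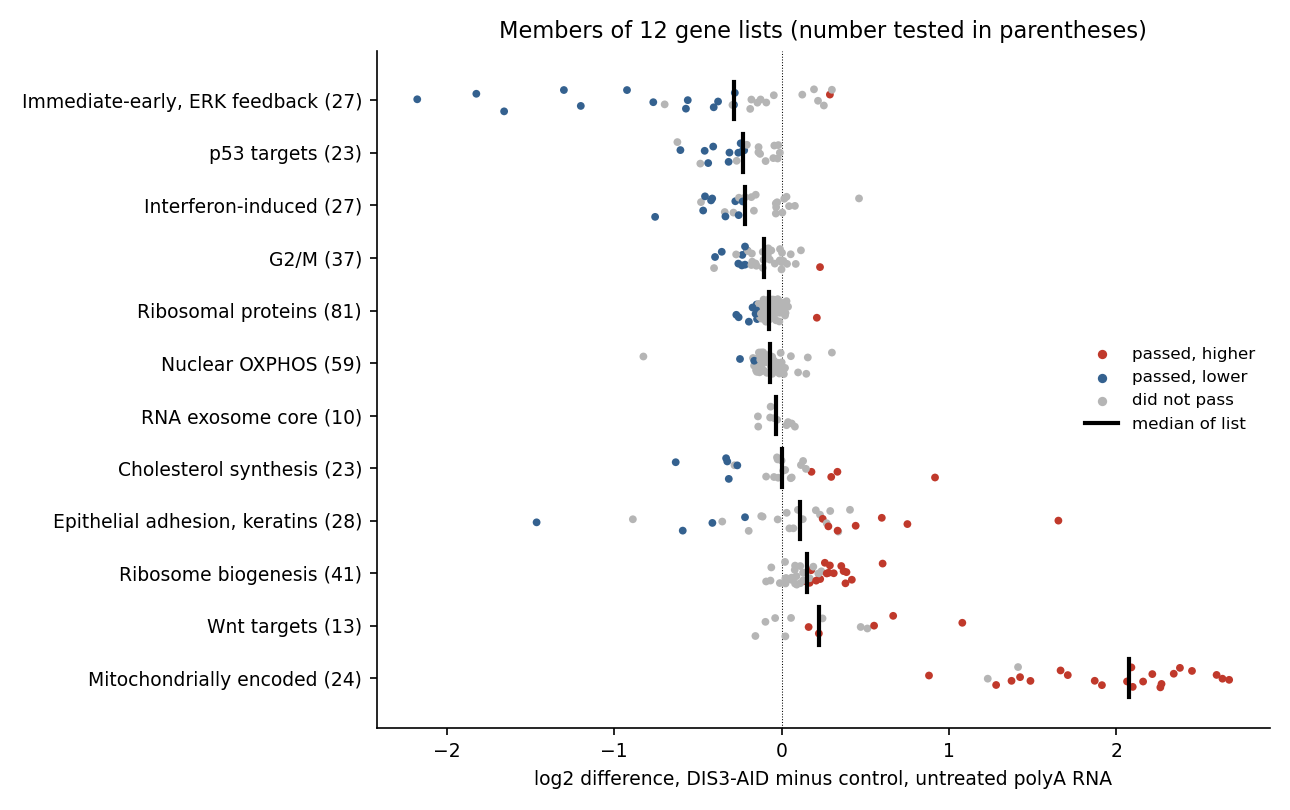
Log2 difference (DIS3-AID minus control, untreated) of each tested member of 12 gene lists, with red and blue dots for members that passed as higher or lower, grey dots for the others and a black bar at the median of the list. Immediate-early, p53 and interferon genes lie mostly left of 0 (medians -0.28, -0.23 and -0.22), ribosome biogenesis and Wnt genes mostly right of it (0.15 and 0.22), and mitochondrially encoded genes stand apart at 2.08.

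The plot of 12 lists sets groups with opposite directions side by side. Wnt targets of colon cells had 5 higher and 0 lower of 13 tested, against 6.22% higher and 5.65% lower among all features, with a median of 0.22. In the auxin-treated pair 3 were higher and 2 lower, with a median of 0.07, against 22% higher and 15.9% lower among all features. BMP4, a secreted growth factor, had 29.8, 31.6 and 30.7 CPM in DIS3-AID and 14.4, 14.3 and 14.8 CPM in control libraries (log2 1.08 ± 0.07 SE, edgeR adjusted p = 6.63e-12). CCND1, cyclin D1 of the G1 phase, had 700, 639 and 675 CPM in DIS3-AID and 495, 431 and 446 CPM in control libraries (log2 0.55). Groups did not overlap in either gene. The feedback inhibitors NKD2 (0.67) and RNF43 (0.22) and the transcription factor TCF7 (0.16) were the others, of which RNF43 (edgeR adjusted p = 0.0495) and TCF7 (0.0359) lay near the threshold. With 1 library left out the RNF43 call was lost in 5 and the TCF7 call in 6 of 6 fits (adjusted p up to 0.359 and 0.2), and the list had 3 higher members in 5 of those fits and 4 without control library 1.

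Ribosome biogenesis factors had 16 higher and 0 lower of 41 tested, against 6.22% higher and 5.65% lower among all features, with a median of 0.15. Without DIS3-AID library 1 there were 9 higher and without control library 2 there were 8. UTP20 (0.60) and UTP14A (0.42) of the small subunit processome, the maturation factor TSR1 (0.39), HEATR1 (0.38), the helicase DDX10 (0.37) and POLR1A, the large subunit of RNA polymerase I (0.36), led the list. POLR1A had 64.7, 53 and 59.5 CPM in DIS3-AID and 48.1, 45.5 and 44.7 CPM in control libraries. The abundant nucleolar proteins NPM1 (-0.06) and NCL (0.08) did not pass. Cytosolic ribosomal protein genes, the products those factors assemble, had 1 higher and 8 lower of 81, against the same shares of all features, with a median of -0.08 and with 25 lower without control library 1, 17 without DIS3-AID library 2 and 4 without DIS3-AID library 1 or control library 3 (RPL22L1 -0.27 and RPS27L -0.26 among those that passed, while RPLP0 at -0.04 did not). HEATR1, TSR1 and POLR1A did not pass in cytoplasm total RNA (0.06, 0.11 and 0.06), where UTP14A (0.47), DDX10 (0.45) and UTP20 (0.20) were higher.

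Epithelial and mesenchymal genes did not move as blocks. Of 28 epithelial adhesion and keratin genes 7 were higher and 4 lower, against 6.22% higher and 5.65% lower among all features. KRT23 had 9.13, 9.4 and 8.13 CPM in DIS3-AID and 2.5, 3.13 and 2.86 CPM in control libraries (log2 1.65), and KRT18, a main keratin of simple epithelia, 2040, 1930 and 2050 CPM in DIS3-AID and 1380, 1480 and 1570 CPM in control libraries (log2 0.44). The epithelial factor GRHL2 (0.75) and the tight junction protein TJP1 (0.60) were higher, and KRT7, given above, and the epithelial factor ELF3 (-0.59) lower. Of 19 mesenchymal and TGF-beta genes SPARC, the TGF-beta inhibitor SMAD7 (0.84, lost without DIS3-AID library 3 or control library 2, edgeR adjusted p up to 0.0721) and the matrix protein LTBP2 (0.62) were higher, while VIM and ZEB1, a repressor of epithelial genes, were lower. ZEB1 had 4.94, 5.16 and 5.26 CPM in DIS3-AID and 8.41, 9.17 and 6.56 CPM in control libraries (log2 -0.65).

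Metabolic lists held genes of both directions, in counts that depended on single libraries and are to be read against 6.22% higher and 5.65% lower among all features. Of 23 genes of cholesterol and lipid synthesis 4 were higher and 5 lower, with 2 to 3 higher and 2 to 5 lower when 1 library was left out. SC5D, a late enzyme of cholesterol synthesis, had 32.7, 34.9 and 31.3 CPM in DIS3-AID and 19.5, 15.9 and 17 CPM in control libraries (log2 0.92), and FASN, the fatty acid synthase, 816, 678 and 758 CPM in DIS3-AID and 1130, 1170 and 1190 CPM in control libraries (log2 -0.63). HMGCS1 was higher by 0.33, and the regulator SREBF2 (-0.32) was lower, though the SREBF2 call was lost in 4 of 6 fits with 1 library left out (edgeR adjusted p up to 0.121). Of 32 hypoxia and glycolysis genes 5 were higher and 5 lower (3 to 5 higher and 1 to 5 lower with 1 library left out, the 1 being without control library 2), with hexokinase HK2 (0.75) and the glucose transporter SLC2A1 (0.72) on one side and the enolase ENO2 (-0.43) on the other. Of 19 imprinted genes MEST (0.39) and PLAGL1 (0.47), which shares reads with HYMAI, were higher, and CDKN1C (-0.66) and PEG10 (-0.62) lower, with 4 higher without control library 1 and 1 without control library 3. The PLAGL1 call was lost without control library 3 (edgeR adjusted p = 0.0617).

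Cell cycle and stress lists differed by little, with counts that depended on single libraries and are to be read against 6.22% higher and 5.65% lower among all features. G2/M genes had 1 higher and 8 lower of 37 (median -0.11), 5 of them lower without DIS3-AID library 3, led by the centrosomal kinase NEK2 (-0.40) and cyclin B1, CCNB1 (-0.36), while CDC20, at 570, 569 and 569 CPM in DIS3-AID and 499, 525 and 553 CPM in control libraries, did not pass (log2 0.12). S phase genes had 1 higher and 3 lower of 30, and 1 lower without DIS3-AID library 3 or control library 2. Genes of the unfolded protein response had 0 higher and 2 lower of 18 (1 to 3 lower with 1 library left out), and heat shock genes 2 higher and 2 lower of 11, with 0 to 1 higher and 0 to 2 lower when 1 library was left out. Zinc finger genes with ZNF symbols had 9 higher and 26 lower of 252, against 5.65% lower among all features, with 15 lower without DIS3-AID library 1 and 13 without control library 2. ZNF419 (-1.87), which shares reads with a neighbour, and ZNF83 (-0.66) were examples. The antisense RNA ZNF433-AS1 had 0.107, 0.172 and 0.118 CPM in DIS3-AID and 1.36, 0.869 and 1.06 CPM in control libraries (log2 -3.01).

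Transcript classes that the nuclear exosome is known to degrade had medians from -0.03 to 0.17 in the untreated clone where given here, against 0.01 for all features, with most members not passing. Assembled loci, transcripts that carry only a locus number in the files, had 43 higher and 10 lower of 783, with a median of 0.17. Regions named as enhancer RNA (eRNA) had 95 higher and 34 lower of 1462, with a median of 0.15. Divergent transcripts, which start at a gene's promoter and run away from it, had 4 higher and 6 lower of 315 (median -0.03). Antisense lncRNAs had 28 higher and 22 lower of 667, LINC genes 17 and 7 of 292, box C/D snoRNAs 1 and 0 of 60 and box H/ACA snoRNAs 0 and 0 of 48. With 1 library left out the lower divergent transcripts numbered 0 to 4, the higher ones 2 without control library 2, and the higher antisense lncRNAs 16 without control library 2 and 17 without DIS3-AID library 3. Most of these shares lie near or under the 6.22% higher and 5.65% lower of all features. The members tested include any that reached the count filter only through auxin-treated libraries. The share of counts on eRNA regions was 1.18, 1.2 and 1.22% in DIS3-AID and 1.13, 1.12 and 1.1% in control libraries. These groups did not overlap (exact permutation p = 0.1, the smallest possible), and their means differed by 0.0834 percentage points. A single abundant eRNA region had 790, 1110 and 1580 CPM in DIS3-AID and 400, 282 and 286 CPM in control libraries. The difference in share can rest on that region alone. Its DIS3-AID libraries rose in the order seen for the mitochondrial share. Whether its reads come from mitochondrial RNA was not tested.

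Single members of these classes passed. GAS6-DT had 7.32, 8.95 and 6.44 CPM in DIS3-AID and 3.32, 3.09 and 3.2 CPM in control libraries (log2 1.24), PPP1R3B-DT was higher by 0.92 and ERRFI1-DT by 0.75 (lost in 3 of 6 fits with 1 library left out, edgeR adjusted p up to 0.115). LINC02535 had 4.02, 5.03 and 3.26 CPM in DIS3-AID and 1.58, 1.53 and 2.02 CPM in control libraries (log2 1.26). Of the well-known lncRNAs MALAT1, which stays in nuclear speckles, had 15.2, 17.1 and 19.7 CPM in DIS3-AID and 11.7, 11.3 and 10.3 CPM in control libraries (log2 0.65), and stood at -0.09 in cytoplasm total RNA. UCA1, abundant in this line, was higher by 0.31, and SNORD4A, the 1 box C/D member, by 0.98 (lost without DIS3-AID library 3, edgeR adjusted p = 0.0701). Among loci without a name XLOC_014062 had 1.99, 1.96 and 2.47 CPM in DIS3-AID and 0.633, 0.521 and 0.684 CPM in control libraries (log2 1.79), and XLOC_010677 0.817, 0.861 and 0.628 CPM in DIS3-AID and 4.52, 4.1 and 5.41 CPM in control libraries (log2 -2.59). Of the eRNA regions 1 was higher by 2.56 and another lower, at -1.97. The files give no coordinates for these loci and regions.

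**Figure D5:**
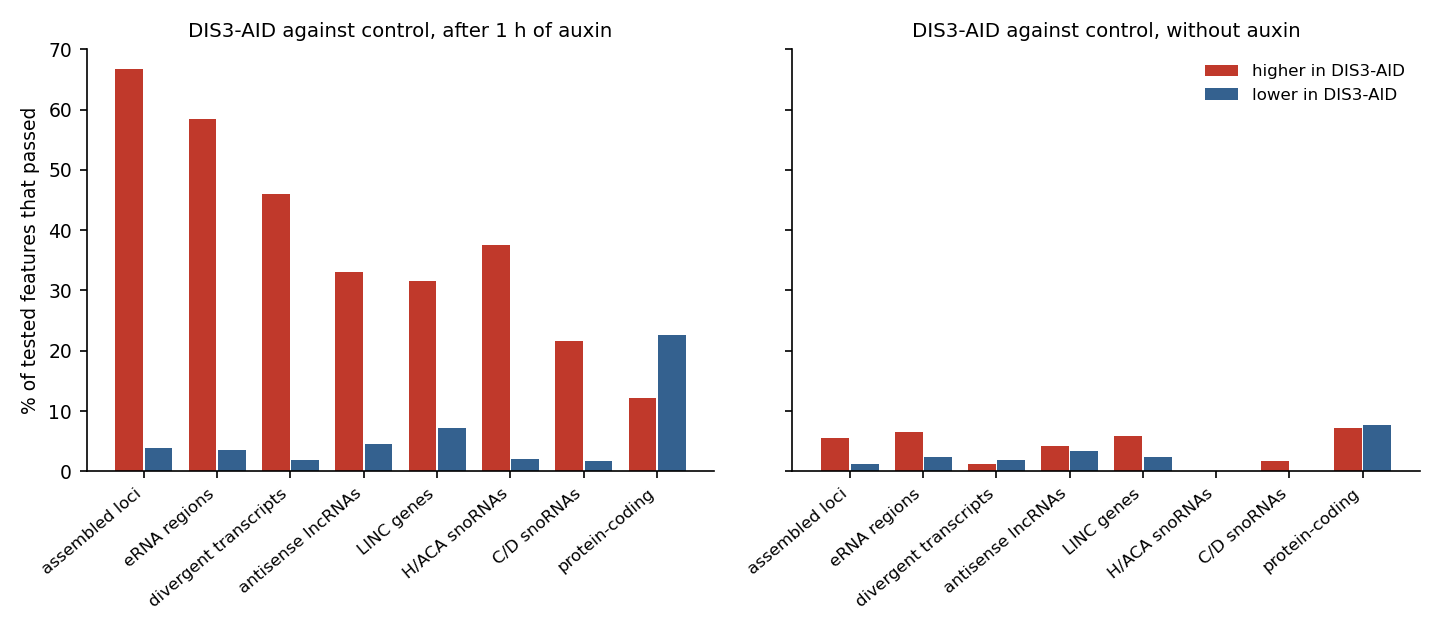
Percentage of tested features of 8 transcript classes that passed as higher (red) or lower (blue) in DIS3-AID against control polyA libraries, after 1 h of auxin (left) and without auxin (right), on one scale. After auxin 66.7% of assembled loci and 58.5% of eRNA regions passed as higher, against 5.49 and 6.5% without auxin. Features that reached the count filter only through auxin-treated libraries are included in both panels.

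The plot of transcript classes sets the untreated difference against that after auxin. After auxin 66.7% of assembled loci, 58.5% of eRNA regions and 46% of divergent transcripts were higher in DIS3-AID libraries, against 5.49, 6.5 and 1.27% without auxin, and all features together had 22% after auxin and 6.22% without. The features tested include any that reached the count filter only through auxin-treated libraries. The shares with and without auxin are therefore not like for like. Tested directly, the difference between the lines after auxin minus that without passed in 972 features (5.84%), 808 upwards (4.85%) and 164 downwards (0.985%). By at least 2-fold, 630 passed upwards (3.78%) and 5 downwards (0.03%). ERRFI1-DT stood at 9.61, 9.67 and 9.1 CPM in auxin-treated DIS3-AID libraries and 0.848, 1.18 and 0.77 CPM in auxin-treated control libraries, a difference larger by 2.58 than the one without auxin (edgeR adjusted p = 4.17e-07). Without auxin it stood at 1.46, 1.96 and 2.28 CPM in DIS3-AID and 1.11, 0.869 and 1.37 CPM in control libraries. The groups were separate both times.

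Most features that differed without auxin differed the same way after it, in libraries shared by neither contrast. Of the 1035 higher features 803 (77.6%) passed as higher after auxin and 0 as lower, which is 21.9% of the 3667 features higher after auxin. Of the 941 lower features 791 (84.1%) passed as lower and 14 as higher, which is 29.9% of the 2644 lower after auxin. Among all features tested 22% were higher and 15.9% lower after auxin. The line and its libraries' preparation are common to both contrasts. In cytoplasm total RNA 22.1% of 23027 features passed, and 1.56% were higher and 0.738% lower by at least 2-fold. Of the polyA calls tested in both, 580 of 938 higher features (61.8%) and 683 of 906 lower ones (75.4%) passed the same way. These are 36.2% of the 1600 higher and 33.7% of the 2029 lower features called there that were also tested in polyA RNA. Among all features of cytoplasm total RNA 9.67% were higher and 12.4% lower. On chromatin 32.5% of 24966 passed (42.3% at an unadjusted p under 0.05), 15.2% as higher and 17.4% as lower. There 336 of 921 higher (36.5%) and 353 of 885 lower features (39.9%) passed the same way, while 112 and 68 passed the opposite way.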

How the data were processed

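RNA was counted in 36 libraries, of which the 6 untreated cytoplasm polyA libraries are the main material. The deposited files hold raw counts per feature, 1 table per library. Per the submitters' processing notes the authors used STAR 2.7.3a, Cufflinks 2.2.1 and featureCounts 2.0.0 on hg38. How reads of overlapping or near-identical features were counted is not given in the sources used here. Symbols and classes came from GENCODE 29, promoters from RefSeq (GRCh38.p14).

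All 12 polyA libraries were fitted together in edgeR 4.0.16 (R 4.3.3; TMM factors 0.973 to 1.011 in the 6 main libraries, filterByExpr with a minimum count of 10, robust quasi-likelihood F test, Benjamini-Hochberg adjustment over 16651 features). Cytoplasm total RNA and chromatin were fitted separately. CPM are counts scaled to TMM-adjusted library size. The fit was tested on simulated data. Alternatives were DESeq2 1.42.0, other scalings and filters, the 6 libraries alone, the replicate number as a block and each library left out.

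Genes were named by rule: DIS3 and exosome genes, the 12 highest and 12 lowest called features with at least 2 CPM, separate groups and the same direction after auxin, up to 6 passing and 3 other members of each list, up to 3 loci and eRNA regions, and features at 0. The members and lists were chosen with earlier results of these data known. Listed members outside the rule are marked in the text, and some genes that met it are not reported here.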

Additional observations from a re-analysis of the deposited data

Results flagged for a closer look

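The difference between the lines after auxin minus that without it passed for 13 genes named here (edgeR, interaction test, adjusted over all features). It was positive for the non-coding CDK13-DT (2.689, lower in DIS3-AID cells without auxin and higher after it), ERRFI1-DT (2.58), VIM-AS1 (1.5) and the snoRNA host genes SNHG20 (1.465) and SNHG19 (0.496). SNHG19 had 20.5, 21.9 and 22.3 CPM in auxin-treated DIS3-AID and 21.8, 23.2 and 22.8 CPM in auxin-treated control libraries, and 12.7, 14 and 16 CPM in DIS3-AID and 20.2, 20.3 and 22.4 CPM in control libraries without auxin. The difference was negative for DUSP6 (-0.699), KLF6 (-0.633), DBP (-0.608), ELF3 (-0.6), CCN1 (-0.484), TRIB1 (-0.401), HMGCS1 (-0.339) and CDKN1A (-0.253). DUSP6, KLF6, CCN1 and TRIB1 are of the immediate-early list. The call of CDK13-DT without auxin was lost in 6 of 6 fits that left out 1 library.

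On chromatin the difference ran opposite to that in polyA RNA, with groups that did not overlap in either fraction, for 7 named features, and the difference between the fractions was not tested. The chromatin log2 differences were -2.793 for MT-RNR1, -0.486 for KRT18, -0.226 for ERRFI1-DT and -0.157 for XRN1, all of them higher in polyA RNA, and 0.296 for SREBF2, 0.239 for ELF3 and 0.112 for FASN, all of them lower in polyA RNA. MT-RNR1 did not pass on chromatin (edgeR adjusted p = 0.0676), with means of 0.953 CPM in DIS3-AID and 6.21 CPM in control libraries. In the same libraries 10 of 13 mitochondrial messenger RNAs and 13 of 22 transfer RNAs were higher and 0 lower. KRT18 had 36.6, 32.2 and 32.5 CPM in DIS3-AID and 46.8, 48.2 and 47.1 CPM in control chromatin.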

How the results depend on the processing

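Calls without auxin stayed within 1.5 times the reported 1035 higher and 941 lower features under every other scaling, filter and tool, at 1000 and 923 with library sizes alone, 970 and 919 with DESeq2 and 947 and 1019 with the 6 libraries alone. Leaving out 1 library gave 577 to 1129 higher and 617 to 1074 lower features. The DIS3 difference kept its call throughout (-0.777 to -0.508 with 1 library left out). After auxin it ranged from -0.489 to -0.355 and lost the call in 2 of 6 such fits, those without auxin-treated DIS3-AID library 3 and control library 2 (adjusted p up to 0.0627). Features higher after auxin numbered 2336 with a minimum count of 50 and 2434 without assembled loci and eRNA regions, since fewer features were tested. Features lower in cytoplasm total RNA (2858) numbered 1846 to 2510 with 1 library left out, and moved by over 1.5 times without DIS3-AID library 1 or control library 1, 2 or 3. Replicate numbers do not pair the libraries (same-number r -0.022 to 0.013), and the replicate block gave 1192 higher and 1104 lower features. The signs that turned were of values that did not pass. DIS3L2 (0.039) ranged from -0.022 (without DIS3-AID library 3) to 0.05, with -0.006 without control library 1, and after auxin stood at 0.023 with library sizes alone. HMGCS1 after auxin (-0.004) stood at 0.046 with library sizes alone, 0.014 with a minimum count of 50 and 0.021 without loci and eRNA regions, and ranged from -0.062 to 0.002 with 1 library left out. The cause was not tested. Depth limits what could pass among features of a few counts per library.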
